A study of Mus musculus with 14 samples.

Results

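The 10 genes described here encode the TGF-beta ligands (Tgfb1, Tgfb2, Tgfb3), the latent TGF-beta binding proteins (Ltbp1, Ltbp2, Ltbp3, Ltbp4) and the TGF-beta receptors (Tgfbr1, Tgfbr2, Tgfbr3). They are 10 of 19935 genes analysed. They were chosen by name, with earlier results of these data known. A share of all genes printed beside a count of them is therefore context and no test. The platform annotation gave exactly 1 probe set naming a single gene for each of them. All 10 probe sets lay above the median of all probe sets on all 14 arrays.

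The arrays compare mouse embryonic fibroblasts of the ICR strain that received SKO with an empty Flag vector, SKO with HDAC7, SKO with MEF2C, or GFP in place of SKO, all kept in embryonic stem cell medium and lysed at day 6 or day 10. SKO is not written out in the labels; it is the usual short form for Sox2, Klf4 and Oct4, the factors used to reprogram fibroblasts. HDAC7 belongs to the class IIa histone deacetylases, which bind MEF2 transcription factors such as MEF2C. Each SKO group has 2 arrays a day and GFP has 1 array a day. The labels do not give the promoter that drives the factors or the share of cells transduced, and they say that feeder cells were eliminated before lysis. They number the arrays of a group as experiments without saying whether the cultures were separate, so the p-values reflect the spread between arrays alone, and that spread may be technical.

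TGF-beta ligands are secreted as latent complexes. The propeptide of the ligand stays bound to the mature dimer, and a latent TGF-beta binding protein ties this complex to fibrillin and fibronectin in the extracellular matrix, from which integrins, thrombospondin or proteases release it. The free ligand brings together the type II receptor (Tgfbr2) and the type I receptor (Tgfbr1), which phosphorylates Smad2 and Smad3, while betaglycan (Tgfbr3) is a co-receptor that presents ligand and is best known for TGF-beta2. In fibroblasts the pathway is known for raising matrix and contractile genes. In reprogramming it is known as a barrier to the loss of mesenchymal character.

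Sequence upstream of the start site is shown for Tgfb1, Ltbp2 and Ltbp3, a ligand and 2 binders that were all higher with MEF2C. The Tgfb1 and Ltbp3 differences did not pass without some of the arrays, as given below. Tgfb3, also higher with MEF2C, had no promoter window. The sequences are RefSeq's, of assembly GRCm38.p6, at chr7:25686752-25687001 on the plus strand, chr12:84876559-84876741 on the minus strand and chr19:5740650-5740899 on the plus strand. They are written 5′ to 3′ in the direction of transcription. Those of Tgfb1 and Ltbp3 end at the start site, and that of Ltbp2 ends 67 bases before it, where the gene's annotated span begins. Capitals mark matches to GGGCGG, the core of a GC box, and to CAGAC, a motif that SMADs bind.
Tgfb1: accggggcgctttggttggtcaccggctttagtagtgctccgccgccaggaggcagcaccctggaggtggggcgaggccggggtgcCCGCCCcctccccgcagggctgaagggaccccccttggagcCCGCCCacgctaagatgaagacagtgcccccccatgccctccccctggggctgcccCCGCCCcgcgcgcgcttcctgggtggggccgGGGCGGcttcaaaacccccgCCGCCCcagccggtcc
Ltbp2: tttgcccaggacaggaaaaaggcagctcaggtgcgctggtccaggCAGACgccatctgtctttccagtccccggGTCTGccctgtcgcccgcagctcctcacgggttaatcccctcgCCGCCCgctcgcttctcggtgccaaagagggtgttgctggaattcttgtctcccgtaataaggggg
Ltbp3: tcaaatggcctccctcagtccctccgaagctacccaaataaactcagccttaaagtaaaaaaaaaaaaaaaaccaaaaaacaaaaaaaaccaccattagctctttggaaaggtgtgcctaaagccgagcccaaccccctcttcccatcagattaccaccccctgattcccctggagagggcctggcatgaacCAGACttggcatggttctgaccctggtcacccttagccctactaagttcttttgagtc
RefSeq gave 12 promoter windows for 8 of the 10 genes (Tgfb1, Tgfb2, Ltbp1, Ltbp2, Ltbp3, Ltbp4, Tgfbr1 and Tgfbr2), and the 250 bases before each start were searched on both strands. CAGAC was in 7 of the 12 windows, of 6 genes, against 42.2% of 32851 windows over all genes, and GGGCGG in 6 of 12, of 4 genes, against 32.7%. The Tgfb1 window held GGGCGG 5 times and no CAGAC, the Ltbp2 window held CAGAC 2 times and GGGCGG 2 times, 1 of them in the bases not shown, and the Ltbp3 window held CAGAC 1 time and no GGGCGG. TGACGTCA, the cyclic AMP response element, was in 1 window, of Ltbp1 (1.55% of all windows), and TATAAA, searched on the strand of the gene alone, was in 1 window, of Tgfb2 (7.59%). The Tgfb2 window lies inside the annotated span of the gene, so it may hold transcribed bases of a longer transcript. The same holds for windows of Ltbp1, Ltbp4 and Tgfbr1 that lie downstream of another start of the same gene. For Tgfbr1, CAGAC was in such a window alone. TGANTCA, the AP-1 motif, and the MEF2 consensus were in none of the 12 (6.75% and 2.92% of all windows). Some windows overlap, as genes with close start sites have several. These matches describe letters in a window and are no evidence of binding.

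The added genes were high where the labels place them: Hdac7 lay at 11.16 to 11.38 in SKO+HDAC7 and at 6.78 to 7.44 elsewhere, Mef2c at 9.48 to 9.93 in SKO+MEF2C and at 6.31 to 6.81 elsewhere, and Pou5f1 at 11.70 to 12.10 in the SKO groups and at 5.18 to 5.24 with GFP (log2). Replicate arrays correlated at 0.994 to 0.997 over all genes. The number of arrays limits the precision. The mean log2 level of 10 fibroblast markers was 10.18 and 10.71 on the GFP arrays and between 9.15 and 9.37 on the 12 SKO arrays. That of 6 epithelial markers was 5.68 and 5.86 with GFP, 5.95 to 6.84 in SKO+Flag, 6.30 to 7.68 in SKO+HDAC7 and 5.77 to 6.16 in SKO+MEF2C. Ptprc, Adgre1, Csf1r and Lyz2 of the macrophage and blood list, and Pecam1, Cdh5 and Kdr of the endothelial list, lay below the array median on all 14 arrays. Other genes of these lists did not: Cd68 lay at 5.44 to 7.31 and was below the median on 1 array, Itgam lay at 4.83 to 6.25 and was below it on 5, and Tek lay at 5.13 to 9.21 and was below it on 2.

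All values below are deposited log2 expression values, and a difference of 1 is a 2-fold change. The level of a probe set also depends on its probes, so levels of different genes are not set against each other. A change in an array of whole cultures can be fewer cells of a type or less RNA per cell, which cannot be told apart. Each comparison was fitted with limma on all 14 arrays and all 19935 genes, and called genes are those whose p, adjusted over all genes by Benjamini-Hochberg, was under 0.05.

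**Figure D1:**
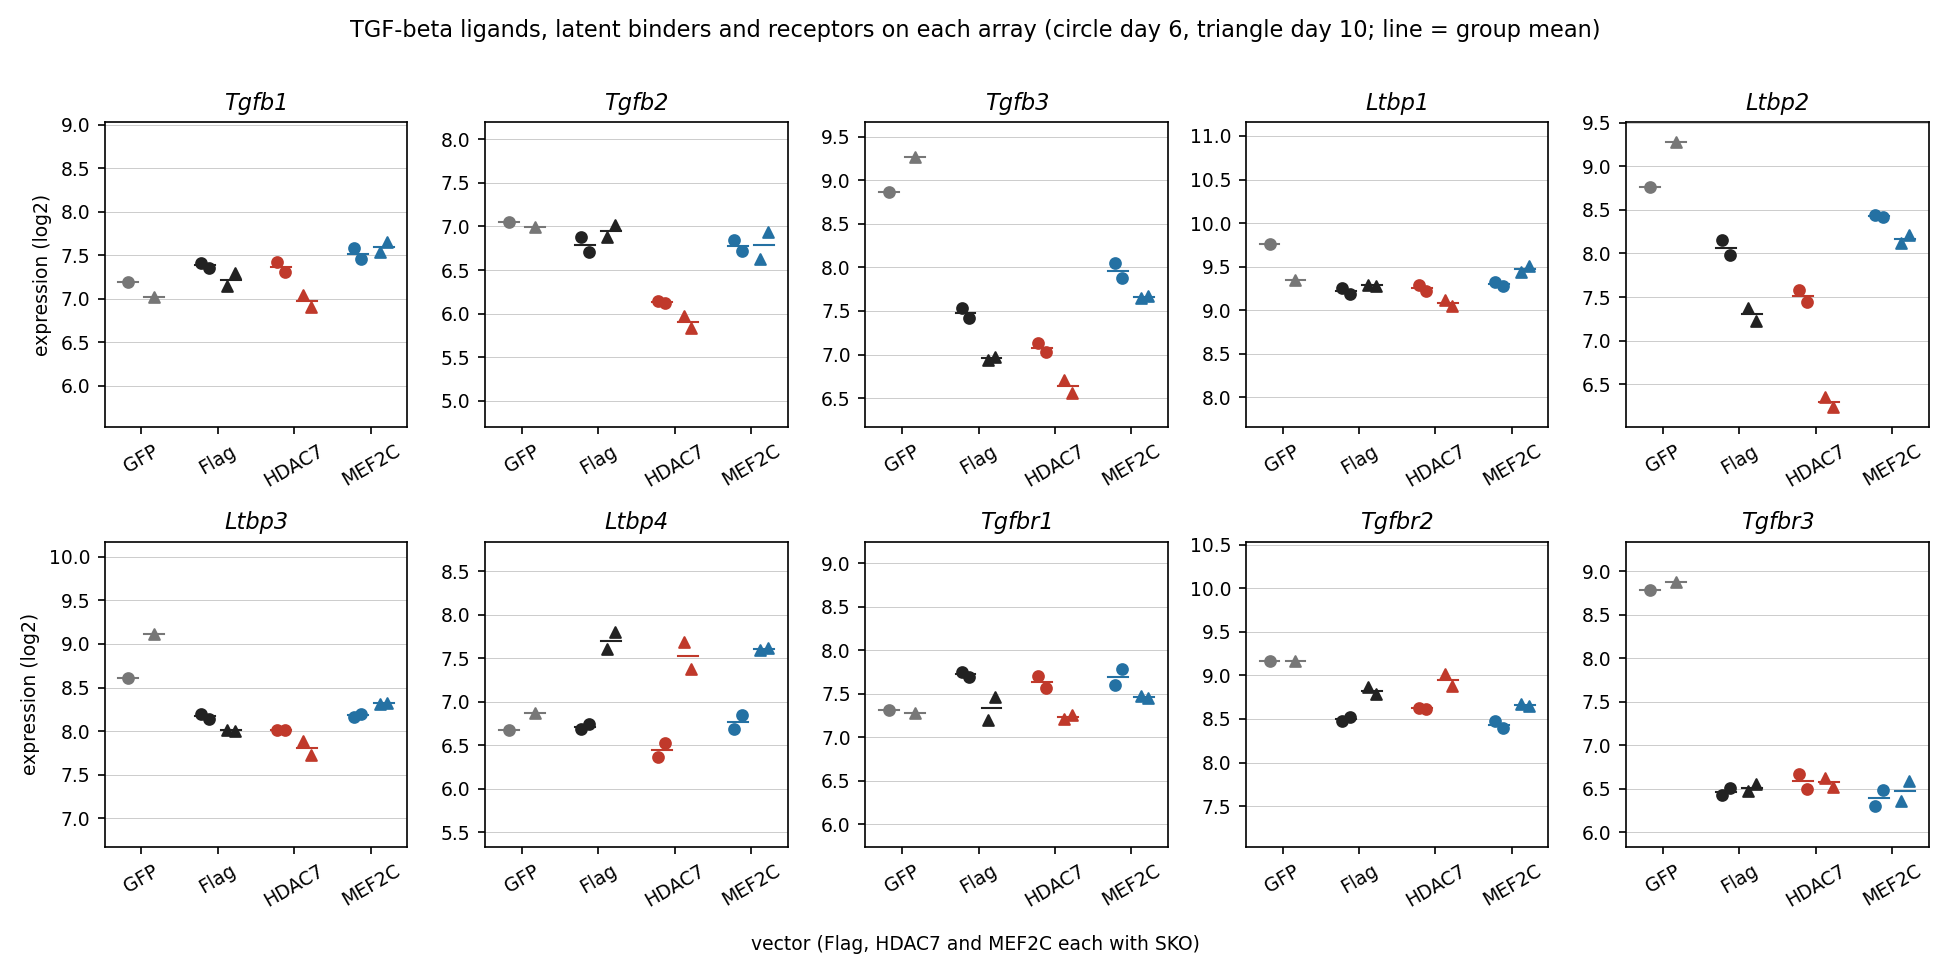
Log2 expression of the 10 genes on each of the 14 arrays, 1 panel a gene, by vector (x axis) and day (circles day 6, triangles day 10). Short lines are group means, each panel spans the same log2 range but its own level, and Tgfbr3 shows the GFP arrays at 8.78 and 8.87 above all SKO arrays, at 6.30 to 6.67.

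Among the ligands, Tgfb1, the most widely expressed isoform in the body, read 7.41 and 7.36 at day 6, then 7.14 and 7.29 at day 10, in SKO+Flag. It lay at 7.42 and 7.31, then 7.04 and 6.90, in SKO+HDAC7, and at 7.58 and 7.45, then 7.53 and 7.65, in SKO+MEF2C. The GFP arrays read 7.19 at day 6 and 7.02 at day 10. The 4 SKO+MEF2C arrays were all above the SKO+Flag arrays of their day, while the SKO+HDAC7 and SKO+Flag arrays overlapped at day 6 and did not at day 10.

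Tgfb2, the ligand that depends most on betaglycan, read 6.88 and 6.71 at day 6, then 6.87 and 7.02 at day 10, in SKO+Flag. In SKO+HDAC7 it lay at 6.15 and 6.12, then 5.98 and 5.84, and in SKO+MEF2C at 6.84 and 6.71, then 6.63 and 6.94. GFP arrays were at 7.05 and 6.99. The 4 SKO+HDAC7 arrays were below every other array, with the 2 of day 10 lowest, and the other 10 arrays lay between 6.63 and 7.05. Among those, the GFP array of day 6 was highest and each other group overlapped the next in order. The SKO+HDAC7 arrays of day 10 were above the median of all probe sets. They were below that of all genes, at percentiles 49.98 and 47.6.

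Tgfb3 lay at 7.53 and 7.42, then 6.94 and 6.97, in SKO+Flag, at 7.13 and 7.02, then 6.70 and 6.56, in SKO+HDAC7, and at 8.05 and 7.88, then 7.65 and 7.67, in SKO+MEF2C. With GFP it read 8.86 at day 6 and 9.27 at day 10. No neighbouring groups overlapped in this gene: from high to low the order was GFP day 10, GFP day 6, SKO+MEF2C day 6, SKO+MEF2C day 10, SKO+Flag day 6, SKO+HDAC7 day 6, SKO+Flag day 10 and SKO+HDAC7 day 10.

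Of the latent binders, Ltbp1 had the narrowest range, from 9.05 to 9.76. It lay at 9.26 and 9.19, then 9.29 and 9.28, in SKO+Flag, at 9.29 and 9.22, then 9.11 and 9.05, in SKO+HDAC7, and at 9.33 and 9.27, then 9.44 and 9.51, in SKO+MEF2C. The GFP arrays read 9.76 and 9.35. The 3 SKO groups overlapped in a chain at day 6 and were apart at day 10.

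Ltbp2, which binds fibrillin and, unlike the other binders, does not bind latent TGF-beta covalently, had the widest range, from 6.23 to 9.28. It lay at 8.15 and 7.98, then 7.38 and 7.22, in SKO+Flag, at 7.58 and 7.44, then 6.35 and 6.23, in SKO+HDAC7, and at 8.44 and 8.42, then 8.12 and 8.21, in SKO+MEF2C. With GFP it read 8.77 at day 6 and 9.28 at day 10. At each day the order was GFP, SKO+MEF2C, SKO+Flag, SKO+HDAC7, with no overlap between arrays of neighbouring vectors.

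Ltbp3 lay at 8.20 and 8.14, then 8.01 and 8.0, in SKO+Flag, and at 8.01 and 8.01, then 7.89 and 7.73, in SKO+HDAC7. In SKO+MEF2C it lay at 8.17 and 8.20, then 8.32 and 8.32, and with GFP at 8.61 and 9.11. SKO+MEF2C and SKO+Flag overlapped at day 6, and at day 10 all 4 vectors were apart. Ltbp4, which binds only TGF-beta1 and also acts in elastic fibre assembly, lay at 6.68 and 6.75, then 7.61 and 7.80, in SKO+Flag, at 6.37 and 6.53, then 7.68 and 7.38, in SKO+HDAC7, and at 6.68 and 6.85, then 7.59 and 7.62, in SKO+MEF2C. Its GFP arrays read 6.67 and 6.87. The 6 SKO arrays of day 10 were above all other arrays, and the 3 SKO groups overlapped there.

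Of the receptors, Tgfbr1, the type I receptor kinase, lay at 7.75 and 7.69, then 7.20 and 7.46, in SKO+Flag, at 7.70 and 7.56, then 7.21 and 7.25, in SKO+HDAC7, and at 7.60 and 7.78, then 7.48 and 7.45, in SKO+MEF2C, with GFP at 7.31 and 7.27. The SKO groups overlapped at day 6, and at day 10 the SKO+Flag pair spanned both SKO+HDAC7 arrays and overlapped the SKO+MEF2C pair. Tgfbr2, the type II receptor, lay at 8.47 and 8.52, then 8.86 and 8.79, in SKO+Flag, at 8.63 and 8.62, then 9.02 and 8.88, in SKO+HDAC7, and at 8.47 and 8.40, then 8.67 and 8.65, in SKO+MEF2C, with GFP at 9.16 and 9.17. At each day the order of the group means was GFP, SKO+HDAC7, SKO+Flag, SKO+MEF2C, which places the last 3 opposite to Tgfb3 and Ltbp2. The nearest SKO+Flag and SKO+MEF2C arrays of day 6 hardly differed, at 8.475 and 8.474. Tgfbr3 lay at 6.43 and 6.50, then 6.47 and 6.55, in SKO+Flag, at 6.67 and 6.49, then 6.62 and 6.53, in SKO+HDAC7, at 6.30 and 6.48, then 6.36 and 6.59, in SKO+MEF2C, and at 8.78 and 8.87 with GFP. At both days SKO+HDAC7 and SKO+MEF2C each overlapped SKO+Flag, and all 12 SKO arrays were far below the 2 GFP arrays.

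HDAC7 was set against the empty vector to ask what it adds to SKO. Averaged over both days, 4 of the 10 genes were lower with HDAC7 and 0 were higher, beside 10.9% of all genes called in either direction, 6.06% lower and 4.83% higher. Tgfb2 was 1.80-fold lower (log2 difference -0.85, SE 0.07, adjusted p = 3.9e-05), Ltbp2 1.72-fold lower (-0.78, SE 0.06, adjusted p = 1.4e-05), Tgfb3 1.29-fold lower (-0.36, SE 0.05, adjusted p = 0.0016) and Ltbp3 1.13-fold lower (-0.18, SE 0.04, adjusted p = 0.028). Each of these 4 was below both SKO+Flag arrays of its day on 4 of 4 SKO+HDAC7 arrays. The Ltbp3 call was lost, at adjusted p of 0.054 to 0.092, without any 1 of SKO+Flag day 6 replicate 1, SKO+Flag day 10 replicate 1 or 2, SKO+HDAC7 day 6 replicate 1 or 2, or SKO+HDAC7 day 10 replicate 2, and also with quantile normalization (0.068) and in the compared groups alone (0.072).

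No receptor passed: Tgfbr1 was at -0.09 (95% interval -0.24 to 0.05), Tgfbr2 at 0.13 (0.02 to 0.23, adjusted p = 0.11) and Tgfbr3 at 0.09 (-0.06 to 0.24). Nor did Tgfb1 (-0.13, interval -0.26 to -0.01, adjusted p = 0.17), Ltbp1 (-0.08, -0.18 to 0.01) or Ltbp4 (-0.22, -0.39 to -0.05, adjusted p = 0.092); the Ltbp4 difference passed at adjusted p = 0.035 without SKO+HDAC7 day 10 replicate 1. The median over the 10 genes was -0.16 against 0.02 over all genes. Median centring of the arrays changed the split of all called genes from 963 higher and 1208 lower to 698 and 1520, and left the members at the same 4 calls. Beside these values, 5 of 6 epithelial markers were higher and 0 lower with HDAC7, and of 10 fibroblast markers 4 were higher and 5 lower; their part in the result was not tested.

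By day, Tgfb2, Tgfb3 and Ltbp2 were lower with HDAC7 at day 6 (3 of 10, beside 4.58% of all genes called and 2.76% called lower) and at day 10 (3 of 10, beside 7.27% called and 3.95% called lower). Tgfb2 was at -0.66 (adjusted p = 0.0065) and then -1.04 (adjusted p = 0.00017), Ltbp2 at -0.55 (0.0052) and then -1.01 (4.0e-05), and Tgfb3 at -0.40 (0.017) and then -0.32 (0.030). The change of the HDAC7 effect between days was called for 0 of the 10 genes by limma, beside 0.125% of all genes, and 3 had an unadjusted p under 0.05: Ltbp2 (-0.46, interval -0.72 to -0.20, adjusted p = 0.19), Tgfb2 (-0.38, -0.71 to -0.05, adjusted p = 0.36) and Ltbp1 (-0.24, -0.43 to -0.05, adjusted p = 0.31). At day 6 the Tgfb2 call was lost without SKO+Flag day 6 replicate 1 (adjusted p = 0.058), and the Tgfb3 call without SKO+Flag day 6 replicate 1 (0.11) or SKO+HDAC7 day 6 replicate 1 (0.055) or 2 (0.091), so that only 1 call was left without the first of these arrays. At day 10 the Tgfb3 call was lost without SKO+Flag day 10 replicate 1 (0.078) or 2 (0.089) or SKO+HDAC7 day 10 replicate 2 (0.21). In the compared groups alone Tgfb3 passed at neither day (0.060 and 0.11).

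**Figure D2:**
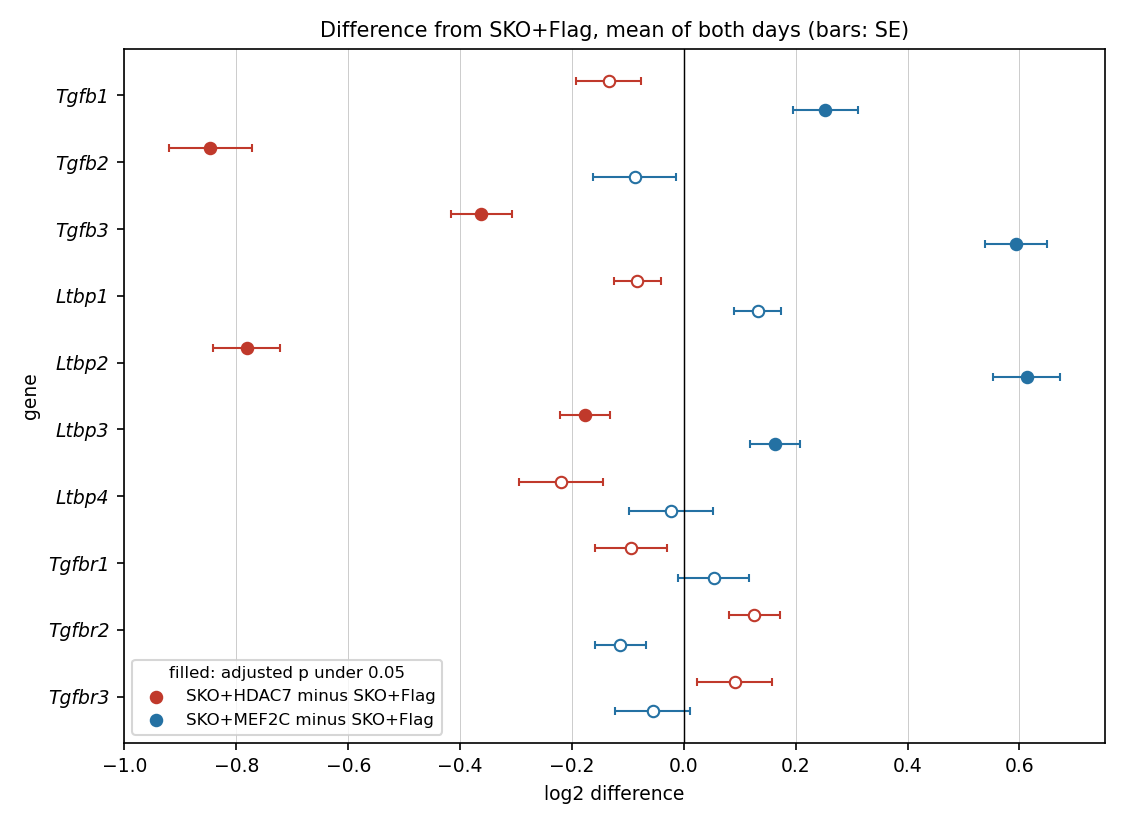
Log2 difference of SKO+HDAC7 (red) and SKO+MEF2C (blue) from SKO+Flag for the 10 genes, as the mean of both days, with the SE of the fit as bars and filled points at an adjusted p under 0.05. Tgfb3, Ltbp2 and Ltbp3 are filled on both sides of 0, Tgfb2 for HDAC7 alone and Tgfb1 for MEF2C alone; both comparisons use the same SKO+Flag arrays.

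With MEF2C, 4 of the 10 genes were higher than in SKO+Flag and 0 were lower, beside 10.3% of all genes called in either direction, 5.49% higher and 4.82% lower. Ltbp2 was 1.53-fold higher (0.61, SE 0.06, adjusted p = 8.8e-05), Tgfb3 1.51-fold higher (0.59, SE 0.05, adjusted p = 6.1e-05), Tgfb1 1.19-fold higher (0.25, SE 0.06, adjusted p = 0.017) and Ltbp3 1.12-fold higher (0.16, SE 0.04, adjusted p = 0.042). Ltbp2, Tgfb3 and Tgfb1 were above both SKO+Flag arrays of their day on 4 of 4 SKO+MEF2C arrays, and Ltbp3 on 3 of 4. The Tgfb1 call was lost without SKO+Flag day 6 replicate 2 (adjusted p = 0.054), SKO+MEF2C day 6 replicate 1 (0.075) or SKO+MEF2C day 10 replicate 2 (0.073), and the Ltbp3 call without any 1 of the 8 arrays compared (0.069 to 0.13), with quantile normalization (0.074) or with an intensity trend and robust prior (0.051). Without each of the 3 arrays named for Tgfb1, 2 calls were left.

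Tgfb2 did not pass with MEF2C (-0.09, interval -0.25 to 0.08). Ltbp1 was at 0.13 (0.04 to 0.23, adjusted p = 0.077), Ltbp4 at -0.02 (-0.19 to 0.14), Tgfbr1 at 0.05 (-0.09 to 0.19), Tgfbr2 at -0.11 (-0.21 to -0.01, adjusted p = 0.16) and Tgfbr3 at -0.06 (-0.20 to 0.09). The median over the 10 genes was 0.09 against 0.01 over all genes. Median centring changed the split of all called genes from 1094 higher and 960 lower to 863 and 1142, and under it Ltbp3 did not pass (adjusted p = 0.087). Beside these values, 4 of 6 epithelial markers were lower and 0 higher with MEF2C, and 2 of 10 fibroblast markers were higher and 0 lower; their part in the result was not tested.

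At day 6, 2 of 10 genes were higher with MEF2C, beside 3.1% of all genes called and 1.33% called higher: Tgfb3 at 0.48 (adjusted p = 0.0074) and Ltbp2 at 0.36 (adjusted p = 0.047). At day 10, 4 of 10 were higher, beside 7.01% called and 4% called higher: Ltbp2 at 0.86 (adjusted p = 0.00015), Tgfb3 at 0.70 (0.00032), Tgfb1 at 0.37 (0.019) and Ltbp3 at 0.31 (0.013). The change of the MEF2C effect between days was called for 0 of 10 by limma, beside 0.0853% of all genes, and 2 had an unadjusted p under 0.05, Ltbp2 (0.50, interval 0.24 to 0.77, adjusted p = 0.22) and Ltbp3 (0.30, 0.10 to 0.49, adjusted p = 0.43). At day 6 the Ltbp2 call was lost without any 1 of the 4 arrays compared (0.070 to 0.24), and the Tgfb3 call without SKO+Flag day 6 replicate 2 (0.066) or SKO+MEF2C day 6 replicate 1 (0.088). At day 10 the Ltbp3 call was lost without SKO+MEF2C day 10 replicate 1 (0.081) or 2 (0.082), and the Tgfb1 call without SKO+Flag day 10 replicate 1 (0.11) or SKO+MEF2C day 10 replicate 2 (0.15). Ltbp2 at day 6 also failed with median centring (0.071), and in the compared groups alone Ltbp2 at day 6 (0.085) and Ltbp3 (0.068) and Tgfb1 (0.097) at day 10 did not pass.

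Set against each other, SKO+HDAC7 and SKO+MEF2C differed in 7 of the 10 genes, 6 lower and 1 higher with HDAC7, beside 22% of all genes called in either direction, 11.8% lower and 10.3% higher. Ltbp2 was 2.63-fold lower with HDAC7 (-1.39, SE 0.06, adjusted p = 4.5e-08), Tgfb3 1.94-fold lower (-0.96, SE 0.05, adjusted p = 3.9e-07) and Tgfb2 1.69-fold lower (-0.76, SE 0.07, adjusted p = 2.5e-05). Tgfb1 (-0.39, adjusted p = 0.00055), Ltbp3 (-0.34, 0.00022) and Ltbp1 (-0.22, 0.0034) were lower by less. Tgfbr2 was the member higher with HDAC7, by 0.24 (SE 0.05, adjusted p = 0.0030), on 4 of 4 arrays above both SKO+MEF2C arrays of the day. Tgfbr1 (-0.15, interval -0.29 to -0.01), Tgfbr3 (0.15, -0.0024 to 0.30) and Ltbp4 (-0.20, -0.36 to -0.03) did not pass, and Ltbp4 passed at adjusted p = 0.025 without SKO+HDAC7 day 10 replicate 1. The 7 calls held without any 1 of the 8 arrays compared. Beside these values, 5 of 6 epithelial markers were higher and 0 lower in SKO+HDAC7 than in SKO+MEF2C, and of 10 fibroblast markers 4 were higher and 5 lower; their part in the result was not tested.

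SKO itself was set against GFP, with 4 arrays against 2. Of the 10 genes 6 were lower and 2 higher in SKO+Flag as the mean of both days, beside 35.7% of all genes called, 18.2% lower and 17.5% higher. Betaglycan fell most: Tgfbr3 was 5.05-fold lower (-2.34, SE 0.08, adjusted p = 2.4e-09). Tgfb3 was 3.61-fold lower (-1.85, SE 0.07, adjusted p = 2.9e-09), Ltbp2 2.54-fold lower (-1.34, SE 0.07, adjusted p = 7.7e-08), Ltbp3 1.71-fold lower (-0.77, SE 0.05, adjusted p = 6.7e-07), Tgfbr2 1.42-fold lower (-0.51, SE 0.06, adjusted p = 2.9e-05) and Ltbp1 1.23-fold lower (-0.30, SE 0.05, adjusted p = 0.00076). Ltbp4 was 1.35-fold higher (0.44, SE 0.09, adjusted p = 0.0032) and Tgfbr1 1.17-fold higher (0.23, SE 0.08, adjusted p = 0.040). Tgfb1 (0.19, interval 0.04 to 0.35, adjusted p = 0.053) and Tgfb2 (-0.15, -0.36 to 0.05) did not pass. The Tgfbr1 call was lost without SKO+Flag day 6 replicate 1 (0.089) or 2 (0.054) or SKO+Flag day 10 replicate 2 (0.092), with quantile normalization (0.12) and in the compared groups alone (0.12). Tgfb1 passed at 0.027 without SKO+Flag day 10 replicate 1 and at 0.039 among genes above the median level, and Tgfb2 at 0.049 with quantile normalization. GFP has 1 array a day and is assumed to vary like the SKO groups, so no GFP array could be left out. Beside these values, 8 of 10 fibroblast markers were lower and 4 of 6 epithelial markers higher in SKO+Flag than in GFP, and their part in the result was not tested.

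**Figure D3:**
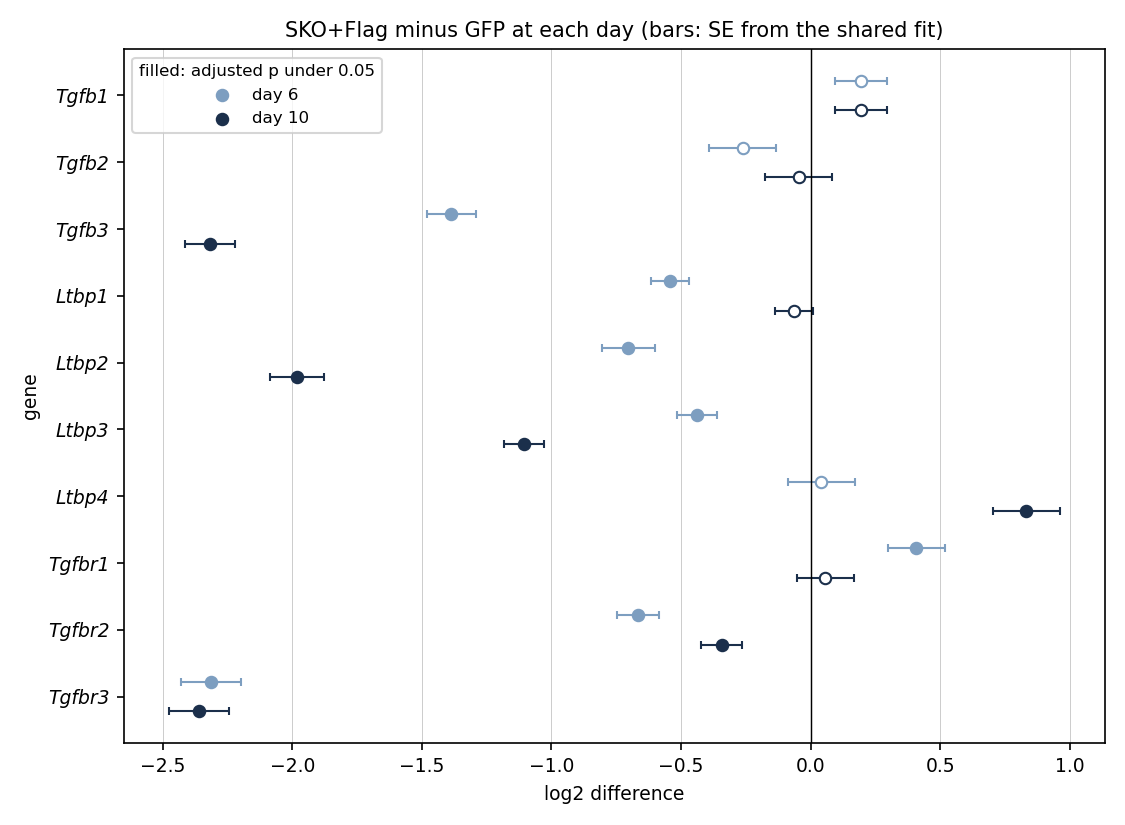
Log2 difference of SKO+Flag from GFP for the 10 genes at day 6 (light) and day 10 (dark), with the SE of the shared fit as bars and filled points at an adjusted p under 0.05. Tgfbr3 sits at -2.31 and -2.36, while Tgfb3, Ltbp2 and Ltbp3 lie farther from 0 at day 10 than at day 6; GFP has 1 array a day.

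The SKO effect differed between the days in 5 of the 10 genes (Tgfb3, Ltbp1, Ltbp2, Ltbp3 and Ltbp4), beside 5.06% of all genes. Of these, Ltbp1 (limma adjusted p = 0.19), Ltbp3 (0.089) and Ltbp4 (0.11) did not pass in the compared groups alone. Most of the change of Ltbp1 and Ltbp3 lay in the single GFP array of each day. At day 6 alone 7 of 10 were called, beside 24.1% of all genes, and at day 10 alone 6 of 10, beside 26.9%. Tgfb3 was at -1.39 at day 6 and at -2.32 at day 10, Ltbp2 at -0.70 and -1.98, and Ltbp3 at -0.44 and -1.11. In contrast, Tgfbr3 was at -2.31 and -2.36, a change of -0.05 (interval -0.41 to 0.32). Ltbp1 was at -0.54 at day 6 and at -0.06 at day 10, where it did not pass, and Ltbp4 was at 0.04 and then 0.83. For Tgfbr2 the values were -0.67 and -0.34, and for Tgfbr1 0.41 and 0.06. The day 6 call of Tgfbr1 was lost without SKO+Flag day 6 replicate 1 (adjusted p = 0.079), and the day 10 call of Tgfbr2 in the compared groups alone (0.095).

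Within the SKO groups, day 10 was set against day 6. Ltbp4 rose in all 3 groups, by 0.99 in SKO+Flag (SE 0.11, adjusted p = 0.00022), by 1.08 in SKO+HDAC7 (adjusted p = 6.6e-05) and by 0.84 in SKO+MEF2C (adjusted p = 0.0015), while the GFP arrays read 6.67 and 6.87. In SKO+Flag 5 of 10 genes changed, beside 8.08% of all genes (3.75% higher, 4.33% lower): Tgfb3 (-0.52, adjusted p = 0.0018), Ltbp2 (-0.76, 0.00026) and Tgfbr1 (-0.39, 0.023) fell, and Ltbp4 and Tgfbr2 (0.33, 0.0096) rose. In SKO+HDAC7 6 of 10 changed, beside 14.6% (7.86% higher, 6.7% lower): Ltbp2 (-1.22, adjusted p = 5.3e-06), Tgfb3 (-0.44, 0.0031), Tgfbr1 (-0.40, 0.014) and Tgfb1 (-0.39, 0.0083) fell, and Ltbp4 and Tgfbr2 (0.32, 0.0067) rose. In SKO+MEF2C Ltbp4 was the 1 gene called, beside 3.08% (1.85% higher, 1.23% lower), with Tgfb3 at -0.30 (adjusted p = 0.071) and Ltbp2 at -0.26 (0.16). How SKO+HDAC7 and SKO+MEF2C differ from SKO+Flag in these time courses is the change of each effect between days given above, which was called for 0 of the 10 genes in either.

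Some of the time calls rested on single arrays. In SKO+Flag the Tgfbr1 call was lost without day 6 replicate 1 (adjusted p = 0.11) or 2 (0.081) or day 10 replicate 1 (0.14), and the Tgfbr2 call without day 6 replicate 1 (0.058) or day 10 replicate 1 (0.066), so that 3 calls were left without either of the last 2 arrays; neither receptor passed in the compared groups alone (0.15 and 0.093). In SKO+HDAC7 the Tgfb1 call was lost without day 6 replicate 1 (0.073) or day 10 replicate 2 (0.082), the Tgfbr1 call without day 6 replicate 1 (0.11) or day 10 replicate 1 (0.077) or 2 (0.063), and the Tgfbr2 call without day 10 replicate 1 (0.059); Ltbp3, at -0.20 (adjusted p = 0.056) on all arrays, passed without that last array (-0.28, 0.029) and with quantile normalization (-0.23, 0.045). Epithelial markers rose with time too, 4 of 6 in SKO+Flag, 6 of 6 in SKO+HDAC7 and 1 of 6 in SKO+MEF2C, and their part in these changes was not tested.

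**Figure D4:**
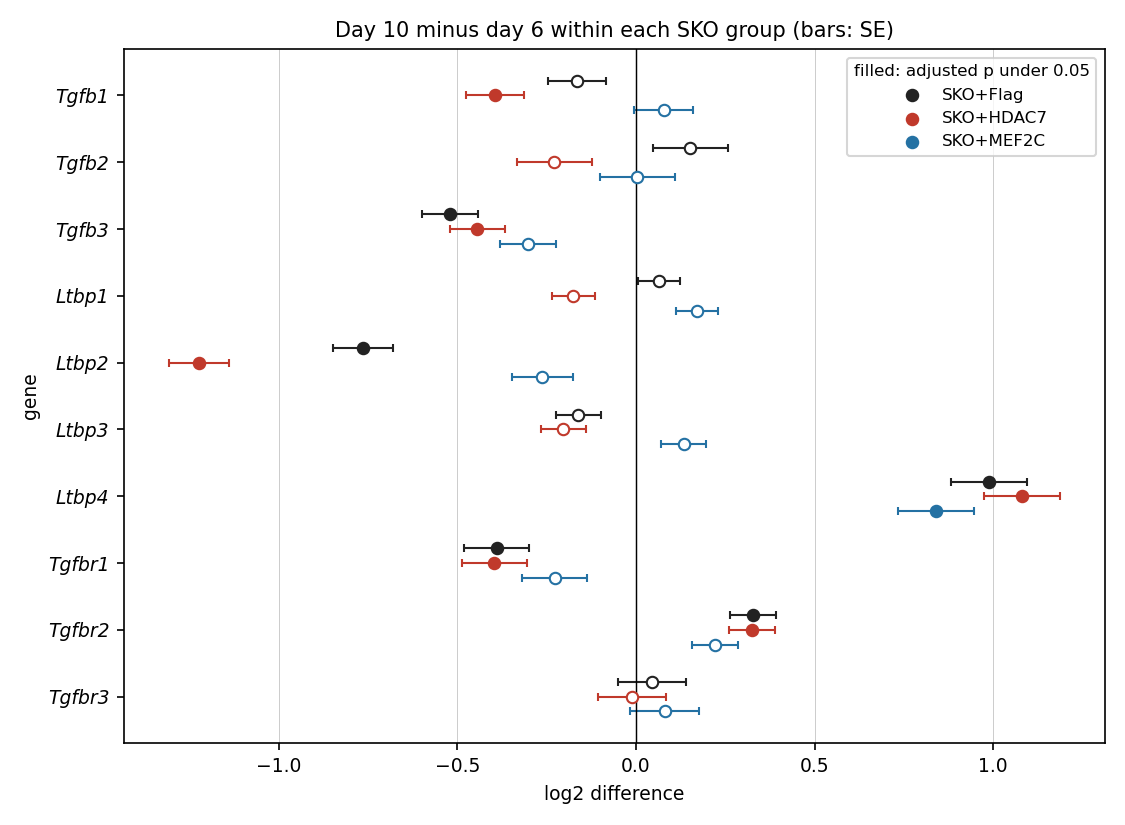
Log2 difference of day 10 from day 6 for the 10 genes in SKO+Flag (black), SKO+HDAC7 (red) and SKO+MEF2C (blue), with the SE of the fit as bars and filled points at an adjusted p under 0.05. Ltbp4 rises in all 3 groups, by 0.84 to 1.08, and Ltbp2 lies at -0.76, -1.22 and -0.26.

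Other genes of the pathway were counted in 3 lists, with differences as the mean of both days. These lists too were chosen with earlier results of these data known, so their counts are no test against all genes. The genes named from them had limma adjusted p of 0.0049 or less with HDAC7, 0.040 or less with MEF2C and 0.00096 or less between SKO+Flag and GFP. Of 16 SMADs and SMAD regulators, 3 were lower and 0 higher with HDAC7: Pmepa1 (-0.51) and Smad7 (-0.42), both feedback inhibitors of the pathway, and Skil (-0.30), a SMAD co-repressor. The list's median was -0.08. With MEF2C 4 were higher and 0 lower, namely Smad6 (0.33), an inhibitory SMAD, Pmepa1 (0.30), Skil (0.23) and Tgif1 (0.20), with a median of 0.06. The Tgif1 call was lost without any 1 of 7 of the 8 arrays compared, all except SKO+Flag day 10 replicate 1 (adjusted p = 0.065 to 0.12), and with median centring (0.078), with quantile normalization (0.069) and in the compared groups alone (0.076). The Skil call was lost without SKO+Flag day 10 replicate 1, SKO+Flag day 6 replicate 1 or 2, SKO+MEF2C day 6 replicate 1 or SKO+MEF2C day 10 replicate 2 (0.053 to 0.083). Without any 1 of the last 4 of these arrays 2 calls were left. In SKO+Flag against GFP 4 were higher, led by Skil (1.23) and the ubiquitin ligase Smurf1 (0.88), and 6 lower, led by Pmepa1 (-0.65) and the pseudoreceptor Bambi (-0.56).

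Of 22 genes for storage and release of the ligand and for co-receptors, 21 were analysed, all but Fbn1, which had no probe set naming it alone. With HDAC7 9 were lower, led by the fibrillin gene Fbn2 (-1.0), Thbs1 (-0.87), whose product thrombospondin-1 activates latent TGF-beta, and the integrin subunit gene Itgav (-0.52), and 1 was higher, Dcn (0.49), which encodes decorin, a proteoglycan that binds TGF-beta and is also among the fibroblast markers. The list's median was -0.13. With MEF2C 7 were higher, led by the protease gene Plau (0.44), fibronectin Fn1 (0.43) and Thbs1 (0.40), and 1 was lower, Fbn2 (-0.35), with a median of 0.14. Fbn2 was thus lower than in SKO+Flag in both groups, which share that control. In SKO+Flag against GFP 13 were lower, led by the protease gene Plat (-2.25), Lrrc32 (-1.97), which encodes the latent TGF-beta anchor GARP, Plau (-1.91) and Mmp2 (-1.43), and 4 were higher.

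In a list of genes known to respond to TGF-beta, 14 were analysed here; Col1a1 and Col1a2 of this list are also fibroblast markers. With HDAC7 10 were lower and 0 higher, with Lox (-1.13), a collagen cross-linking enzyme, Tagln (-1.10), Ccn2 (-0.90) and the smooth muscle actin gene Acta2 (-0.75) at the largest differences and a median of -0.39. With MEF2C 7 were higher and 0 lower, with the matricellular gene Postn at 1.12, Tagln at 0.97, Lox at 0.83 and Acta2 at 0.65 and a median of 0.25. Against GFP 11 were lower in SKO+Flag, with Lox at -2.47, Postn at -2.17, Tagln at -1.86 and Snai2, a repressor of E-cadherin, at -1.64. The 2 higher in SKO+Flag were Id1 (1.21) and Ccn2 (0.76). Between SKO+HDAC7 and SKO+MEF2C, 11 of 14 response genes, 12 of 21 storage and release genes and 7 of 16 SMAD genes were lower with HDAC7, and 0, 1 and 0 were higher. The shares of all genes called that stand beside these counts are those given for each comparison above.

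Over the 12 SKO arrays, which share vectors and days, the genes with the pattern most like Ltbp2 were Col12a1 (Pearson r 0.99), a fibril-associated collagen, Ncs1 (0.99) and Moxd1 (0.99). For Tgfb3 they were Uaca, Nalcn and Efemp1 (each 0.99), for Tgfb1 Tom1, Wwtr1 and Igfbp3 (each 0.96), for Tgfb2 Ano6 (0.96), Pip5k1c (0.96) and Glg1 (0.95), and for Ltbp3 Atf6b, Psap and Thsd1 (each 0.96). Among the members themselves r was 0.95 for Tgfb3 with Ltbp2, 0.92 for Tgfb1 with Ltbp2 and 0.92 for Tgfb1 with Ltbp3. The type I and type II receptors ran opposite to each other (Tgfbr1 with Tgfbr2, r -0.93), and so did Ltbp2 and Tgfbr2 (-0.88). Tgfb2 stood closest to Ltbp2 (0.71) among the members.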

How the data were processed

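The authors deposited log2 expression values per probe set for 14 Affymetrix whole-transcript arrays, 1 per RNA sample; the submitters' processing notes name RMA and Partek and give no version. A genome build is not given in the sources used here. The values were used as deposited, with no filter on dim probe sets. The platform annotation gave 1 symbol for 21780 of 28815 probe sets, several for 1605 and none for 5430. Only probe sets with 1 symbol were used, so genes without such a probe set were not analysed. Of their symbols 21689 matched a RefSeq table by Entrez ID and 91 kept the annotated name. Where a gene had more than 1 probe set (998 genes), that of the highest mean level was used, which left 19935 genes. Array medians were 5.68 to 5.76.

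In R 4.3.3, limma 3.58.1 (lmFit, eBayes) fitted 8 group means (vector by day) to all 14 arrays, with 6 residual and 4.71 prior degrees of freedom, and p-values were adjusted by Benjamini-Hochberg over all genes. The script was tested on simulated data. Named genes were the 10 members, up to 4 called genes of each pathway list by size of difference, and the 3 most alike genes of each member called with HDAC7 or MEF2C. The members and lists were chosen with earlier results of these data known. Promoter windows came from RefSeq. Alternatives were an intensity trend with a robust prior, quantile normalization, median centring, the mean over probe sets, genes above the median level, the compared groups only, a replicate block, and leaving out each array. Whether replicate numbers pair the arrays was not settled. Of 15 correlations of deviations between same-numbered arrays (-0.24 to 0.18) 4 were over 0.1. Of the 6 within a day 3 were over 0.1, each with SKO+Flag (0.15 to 0.18).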

Additional observations from a re-analysis of the deposited data

Results flagged for a closer look

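The SKO effect, SKO+Flag minus GFP, differed between day 10 and day 6 in 5 of the 10 genes by the test of the change itself in the limma fit. The change was -1.28 for Ltbp2 (SE 0.15, adjusted p = 0.00053), -0.93 for Tgfb3 (SE 0.13, adjusted p = 0.0023), -0.67 for Ltbp3 (SE 0.11, adjusted p = 0.0049), 0.48 for Ltbp1 (SE 0.10, adjusted p = 0.023) and 0.79 for Ltbp4 (SE 0.18, adjusted p = 0.033). For Ltbp2 and Tgfb3 both groups differed between the days: the GFP array of day 10 was above that of day 6 (9.28 against 8.77 and 9.27 against 8.86), and the SKO+Flag arrays of day 10 were below those of day 6. For Ltbp3 the GFP values were 8.61 and 9.11 and for Ltbp1 9.76 and 9.35, while SKO+Flag moved by -0.16 and 0.06 between the days, so most of these changes lay in the 1 GFP array of each day. For Ltbp4 the GFP values were 6.67 and 6.87 and SKO+Flag rose by 0.99. The Ltbp1 call was lost without SKO+Flag day 6 replicate 2 (adjusted p = 0.062), and the Ltbp4 call without SKO+Flag day 6 replicate 1 (0.083) or 2 (0.063) or SKO+Flag day 10 replicate 2 (0.059), so that 3 calls were left without the second day 6 array. In the compared groups alone Ltbp1 (0.19), Ltbp3 (0.089) and Ltbp4 (0.11) did not pass.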

How the results depend on the processing

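No called difference of a member changed direction under the alternatives run, scalings included. Several of these settings could not change it, as they leave a member's difference as it was and alter only its p. These were the mean over probe sets (1 probe set a member), intensity trend, genes above the median, compared groups and replicate blocks. A direction could change only under quantile normalization, median centring or with an array left out. Member differences were recomputed under each setting. Under settings other than a left-out array, 1142 stayed on the same side of the threshold, 20 no longer passed and 8 came to pass. Not all of these settings keep every array. The compared groups only drop the arrays of the other groups, and the replicate blocks hold no comparison with GFP. With an array left out the numbers were 743, 53 and 4. Where such a setting changed a count of member calls by over 1.5 times, the count is given here. The compared groups only leave fewer residual degrees of freedom. There the calls were 1 for MEF2C at day 6 and 2 for MEF2C at day 10. They were 2 for the change of the SKO effect and 3 for SKO+Flag over time. Smaller losses there were Ltbp3 with HDAC7, Tgfb3 with HDAC7 at each day, Tgfbr1 for SKO and Tgfbr2 for SKO at day 10. Median centring gave 1 for MEF2C at day 6, and the genes above the median level and the replicate block each gave 2 for SKO+MEF2C over time, with Tgfb3 added; Ltbp4 passed for HDAC7 and for HDAC7 against MEF2C among genes above the median level (adjusted p = 0.05, rounded, in both). The cause was not tested. With an array left out, the calls ranged from 3 to 5 for HDAC7, 1 to 3 at day 6, 2 to 3 at day 10 and 0 for its change; from 2 to 3 for MEF2C, 0 to 1 at day 6, 2 to 4 at day 10 and 0 for its change; from 7 to 8 for HDAC7 against MEF2C; from 7 to 9 for SKO, 6 to 7 at day 6, 6 at day 10 and 3 to 5 for its change; and over time from 3 to 5 in SKO+Flag, 4 to 6 in SKO+HDAC7 and 1 in SKO+MEF2C. At day 10 for MEF2C, 2 calls were left without SKO+MEF2C day 10 replicate 2. Whether the numbers used for the replicate block pair the arrays is not known. The block changed no other count of member calls by over 1.5 times. Within each day it ended the Ltbp3 and Tgif1 calls with MEF2C (limma adjusted p = 0.056 and 0.053). No paired analysis was possible for SKO against GFP because the GFP arrays carry no number, nor could a GFP array be left out.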
